A study of Mus musculus and Acomys cahirinus with 16 samples.

Results

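Genes of xenobiotic metabolism, the cytochrome P450 (CYP), glutathione S-transferase (GST) and UDP-glucuronosyltransferase (UGT) families, were examined in mouse (Mus musculus) and spiny mouse (Acomys cahirinus) skin. Members were chosen by gene symbol, with earlier results of these data known. They comprised Cyp families 1 to 4, the Gsta, Gstm, Gstp, Gstt and Gsto classes, Ugt1 and Ugt2, and Ahr, Ahrr, Arnt, Tiparp, Nqo1 and Ephx1, with pseudogenes left out. This gave 130 of the 56980 genes of the mouse table (83 Cyp, 22 Gst, 19 Ugt and 6 others) and 95 of the 19818 genes of the spiny mouse table (55, 20, 14 and 6). All 95 spiny mouse symbols are also in the mouse table, and 35 symbols are in the mouse table only. The 16 samples fall into 4 groups of 4, namely untreated and DMBA/TPA-treated skin of each species. DMBA (dimethylbenzanthracene) is a carcinogenic polycyclic aromatic hydrocarbon, and the phorbol ester TPA acts as tumor promoter after it. The series title speaks of resistance of spiny mice to carcinogenesis by this treatment, while its design text describes irradiated fibroblasts, and the sample labels were followed. Strain, age, sex, dose, treatment time and whether a treated sample held tumor tissue are not given in the sources used here.

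Drug-metabolising enzymes work in phases. CYP enzymes oxidise a lipophilic compound, and GST and UGT enzymes attach glutathione or glucuronic acid to the product. The aryl hydrocarbon receptor (Ahr) binds polycyclic hydrocarbons, pairs with Arnt and switches on Cyp1a1, Cyp1b1, Tiparp and Ahrr, of which the last 2 dampen the receptor. Cyp1b1 and the epoxide hydrolase Ephx1 are known as the enzymes that turn DMBA into its DNA-binding diol epoxide in skin. Mice lacking Gstp1 and Gstp2 are known to form more skin papillomas under DMBA and TPA.

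The receptor pair binds DNA at sites with the core GCGTG. The promoters of 4 of its textbook target genes are shown, and the levels of these genes are given below. Each line holds the 250 bases upstream of the canonical mouse transcript start (GENCODE M39 on GRCm39), 5′ to 3′ on the gene's own strand. Capitals mark GCGTG or its reverse complement CACGC, widened to 7 letters where the longer motif TNGCGTG is present on either strand. They lie at chr9:57603892-57604141 (Cyp1a1, plus strand), chr17:80022533-80022782 (Cyp1b1, minus), chr3:65435070-65435319 (Tiparp, plus) and chr13:74440463-74440712 (Ahrr, minus).
Cyp1a1: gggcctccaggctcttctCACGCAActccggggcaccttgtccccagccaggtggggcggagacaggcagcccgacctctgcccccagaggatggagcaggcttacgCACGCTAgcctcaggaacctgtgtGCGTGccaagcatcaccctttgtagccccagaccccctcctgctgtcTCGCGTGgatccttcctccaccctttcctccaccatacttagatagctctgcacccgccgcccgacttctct
Cyp1b1: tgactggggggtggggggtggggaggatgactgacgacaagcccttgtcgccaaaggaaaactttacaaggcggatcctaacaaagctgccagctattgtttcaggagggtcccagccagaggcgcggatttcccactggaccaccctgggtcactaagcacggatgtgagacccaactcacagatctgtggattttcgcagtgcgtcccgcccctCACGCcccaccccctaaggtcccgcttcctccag
Tiparp: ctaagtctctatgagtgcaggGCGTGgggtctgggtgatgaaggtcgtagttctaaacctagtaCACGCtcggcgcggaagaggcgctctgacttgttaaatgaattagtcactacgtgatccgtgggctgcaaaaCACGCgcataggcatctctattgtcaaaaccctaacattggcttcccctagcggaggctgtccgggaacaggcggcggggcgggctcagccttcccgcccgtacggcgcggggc
Ahrr: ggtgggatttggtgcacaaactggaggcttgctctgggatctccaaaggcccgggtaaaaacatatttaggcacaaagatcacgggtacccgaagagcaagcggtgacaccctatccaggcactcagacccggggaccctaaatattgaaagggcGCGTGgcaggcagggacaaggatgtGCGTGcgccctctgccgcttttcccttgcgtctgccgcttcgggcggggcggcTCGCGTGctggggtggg

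Cyp1a1 held 4 copies of the core, of which 3 extend to TNGCGTG, and its copies begin between 70 and 232 bases upstream of the start. Tiparp held 3 copies, Ahrr 3 with 1 extending to TNGCGTG, and Cyp1b1 held 1. Nqo1 and Cyp1a2, also known as Ahr targets, held neither the core nor the longer motif in this window. Among 21757 protein-coding mouse promoters of this length, 31.2% held the core and 4.81% the longer motif, which lies within the core's matches. Of the members, 20 of 129 promoters (15.5%) held the core and 7 (5.43%) the longer motif. Among the 59 members tested in mouse skin, 16 (27.1%) held the core and 5 (8.47%) the longer motif. The shares over all tested genes with such a promoter were 38.2% and 5.93%. The antioxidant response motif TGACNNNGC, searched on both strands, was in 6 member promoters (4.65%) and in 9.7% of all promoters. These are matches of letters in a short window, and no binding was measured.

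Of the members, 59 in mouse and 42 in spiny mouse passed the filter on low counts and were tested, and 37 were tested in both. No fragment was counted in any sample for 15 members in mouse and 34 in spiny mouse. Mouse libraries totalled 19608787 to 30198281 counts, and spiny mouse libraries 21143918 to 30561256. A count of 3 corresponds to 0.0982 to 0.153 CPM (counts scaled to the depth of the library), a floor that covers counting error only. Levels below are TMM-scaled CPM, and levels of different genes are set against each other only per kilobase of the deposited exon length. The labels do not say that replicates are separate animals, so p-values measure the spread between these samples, which may be technical. In bulk skin, fewer cells of a type and less RNA per cell cannot be told apart.

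The library labelled untreated mouse replicate 1 held hepatocyte marker transcripts far above every other mouse sample. Alb, the main hepatocyte secretory product, was at 396, 1.40, 3.004 and 3.42 CPM in untreated mouse replicates 1 to 4 and at 0.315, 0.352, 0.727 and 0.371 CPM in the treated ones. The 20 hepatocyte markers summed to 863.1 CPM in untreated replicate 1, 9.30 to 9.67 in the other 3 and 10.46 to 12.2 in treated samples. Most of the treated sum was Cps1, at 8.82, 8.18, 7.46 and 9.28 CPM. Untreated replicates 1 to 4 had Cps1 at 38.6, 2.24, 0.806 and 0.273 CPM. In spiny mouse 19 of these markers are in the table and their sum was 46.7 to 61.3 CPM untreated and 36.9 to 61.5 treated, with Ambp at 0 in every sample. The largest spiny mouse contributor was Alb, at 44.02, 31.2, 26.6 and 38.3 CPM untreated and 18.6, 24.4, 25.9 and 29.1 treated. Members were then picked for the same split in mouse. By this rule 31 members had over 80% of their untreated CPM in replicate 1, with at least 10 counts there. Low sums in the other untreated samples follow from this choice, and the share of all genes that meet the rule was not counted. Their CPM summed to 180.7 in that library, against 1.14, 1.14 and 1.55 in the other untreated ones and at most 1.46 in any treated one.

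**Figure D1:**
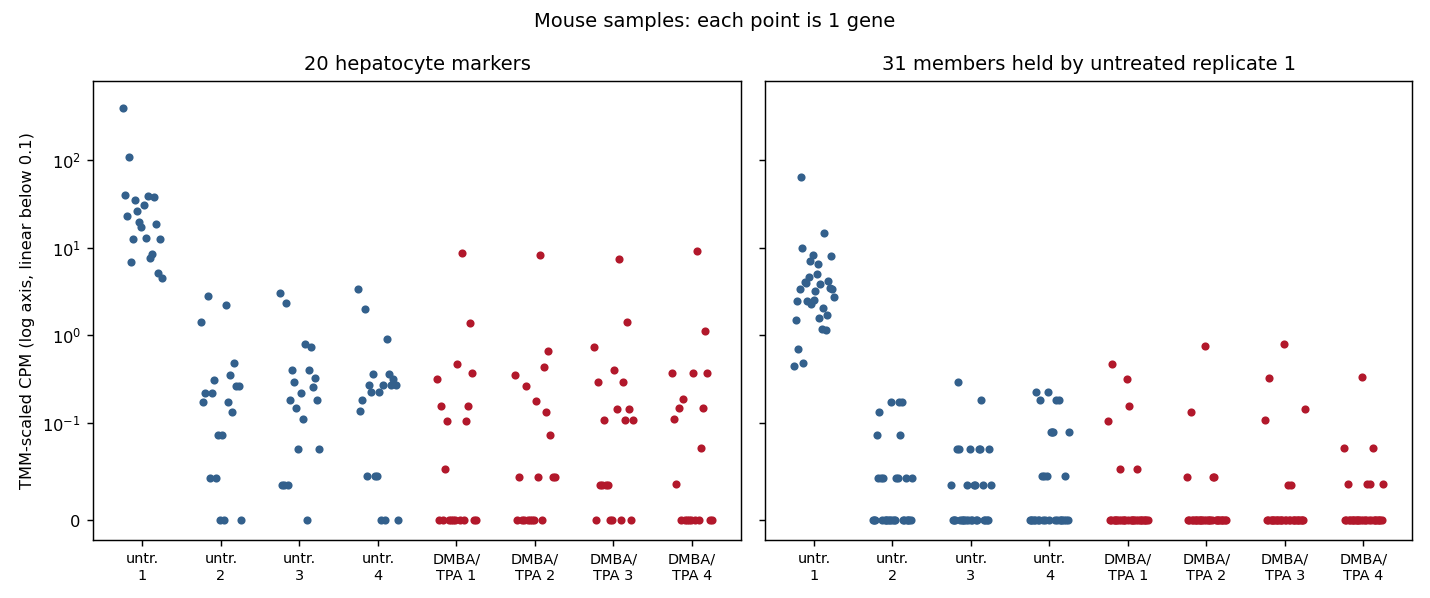
TMM-scaled CPM of each hepatocyte marker (left, 20 genes) and of each of the 31 members with over 80% of their untreated CPM in replicate 1 (right), by mouse sample, untreated in blue and DMBA/TPA-treated in red, on an axis that is logarithmic above 0.1 CPM. The highest points of both panels belong to untreated replicate 1, with Alb at 396 CPM on the left and Cyp3a11 at 63.6 CPM on the right.

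Cyp3a11, the main CYP of mouse liver for drugs, led this group with 63.6, 0.132, 0.293 and 0.228 CPM in untreated replicates 1 to 4 and no count in treated skin. Cyp2c29 followed with 14.9 CPM in replicate 1, Cyp3a25 with 9.89, Cyp2a5 with 8.27 and Cyp2c50 with 7.98. Cyp1a2, an Ahr target of liver, was at 3.22, 0, 0 and 0.0911 CPM untreated. Ugt2b5 was at 7.08 CPM in replicate 1 and at most 0.0366 in any other mouse sample, and it ranked among the 3 highest Ugt members per kilobase only through that library. None of the 31 passed the filter, so none enters the counts of members called. Without untreated replicate 1, 42 members were called in mouse in place of 43, with 11 higher in both fits.

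In mouse skin 43 of the 59 tested members (72.9%) differed between treated and untreated samples at an adjusted p under 0.05 by edgeR's quasi-likelihood test, against 61.2% of all genes tested. Lower levels prevailed, with 32 members lower and 11 higher in treated skin, where 35.3% of all genes were lower and 25.9% higher. The median log2 fold change was -0.77 over the tested members and -0.15 over all genes. Called changes of at least 2-fold on the linear scale (1 on log2) went down in 25 members and up in 7, against 24.3% and 9.81% of all genes. All 4 treated samples lay below all 4 untreated ones for 28 members and above them for 10, against 32.0% and 26.6% of all genes (58.6% in either direction). By family, 15 of 17 tested Cyp2 members fell and 2 rose, 4 of 8 Cyp4 members fell and 1 rose, and 8 of 19 Gst members fell and 5 rose.

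In spiny mouse skin 23 of the 42 tested members (54.8%) were called, close to the 55.1% of all genes. Of these 15 were lower and 8 higher, against 26.9% and 28.2% of all genes, and the median log2 fold change was -0.09 beside -0.01 over all genes. Called changes of at least 1 on the log2 scale went down in 2 members and up in 6, against 8.27% and 6.74% of all genes. Treated samples lay wholly below untreated ones for 13 members and wholly above for 7, against 24.1% and 26.7% of all genes (50.9% in either direction). Among tested Cyp members 5 rose and 5 fell of 18, and among Gst members 7 fell and 1 rose of 14. Summed Cyp2 levels, without the 31 liver-library members, went in mouse from 430.2, 269.9, 353 and 532 CPM untreated to 175, 162, 156 and 164 treated, with no overlap. These sums keep Cyp2e1, whose level varied widely between untreated mouse samples. In spiny mouse the Cyp2 sums were 127, 125, 134 and 141 CPM untreated and 121, 130.2, 111 and 139.8 treated, and these groups overlapped. The sums of the species cover different genes, 35 in mouse and 26 in spiny mouse, and 13 of the latter had no count. Only 7 Cyp2 members were tested in both species, so the sums do not compare the family like for like.

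**Figure D2:**
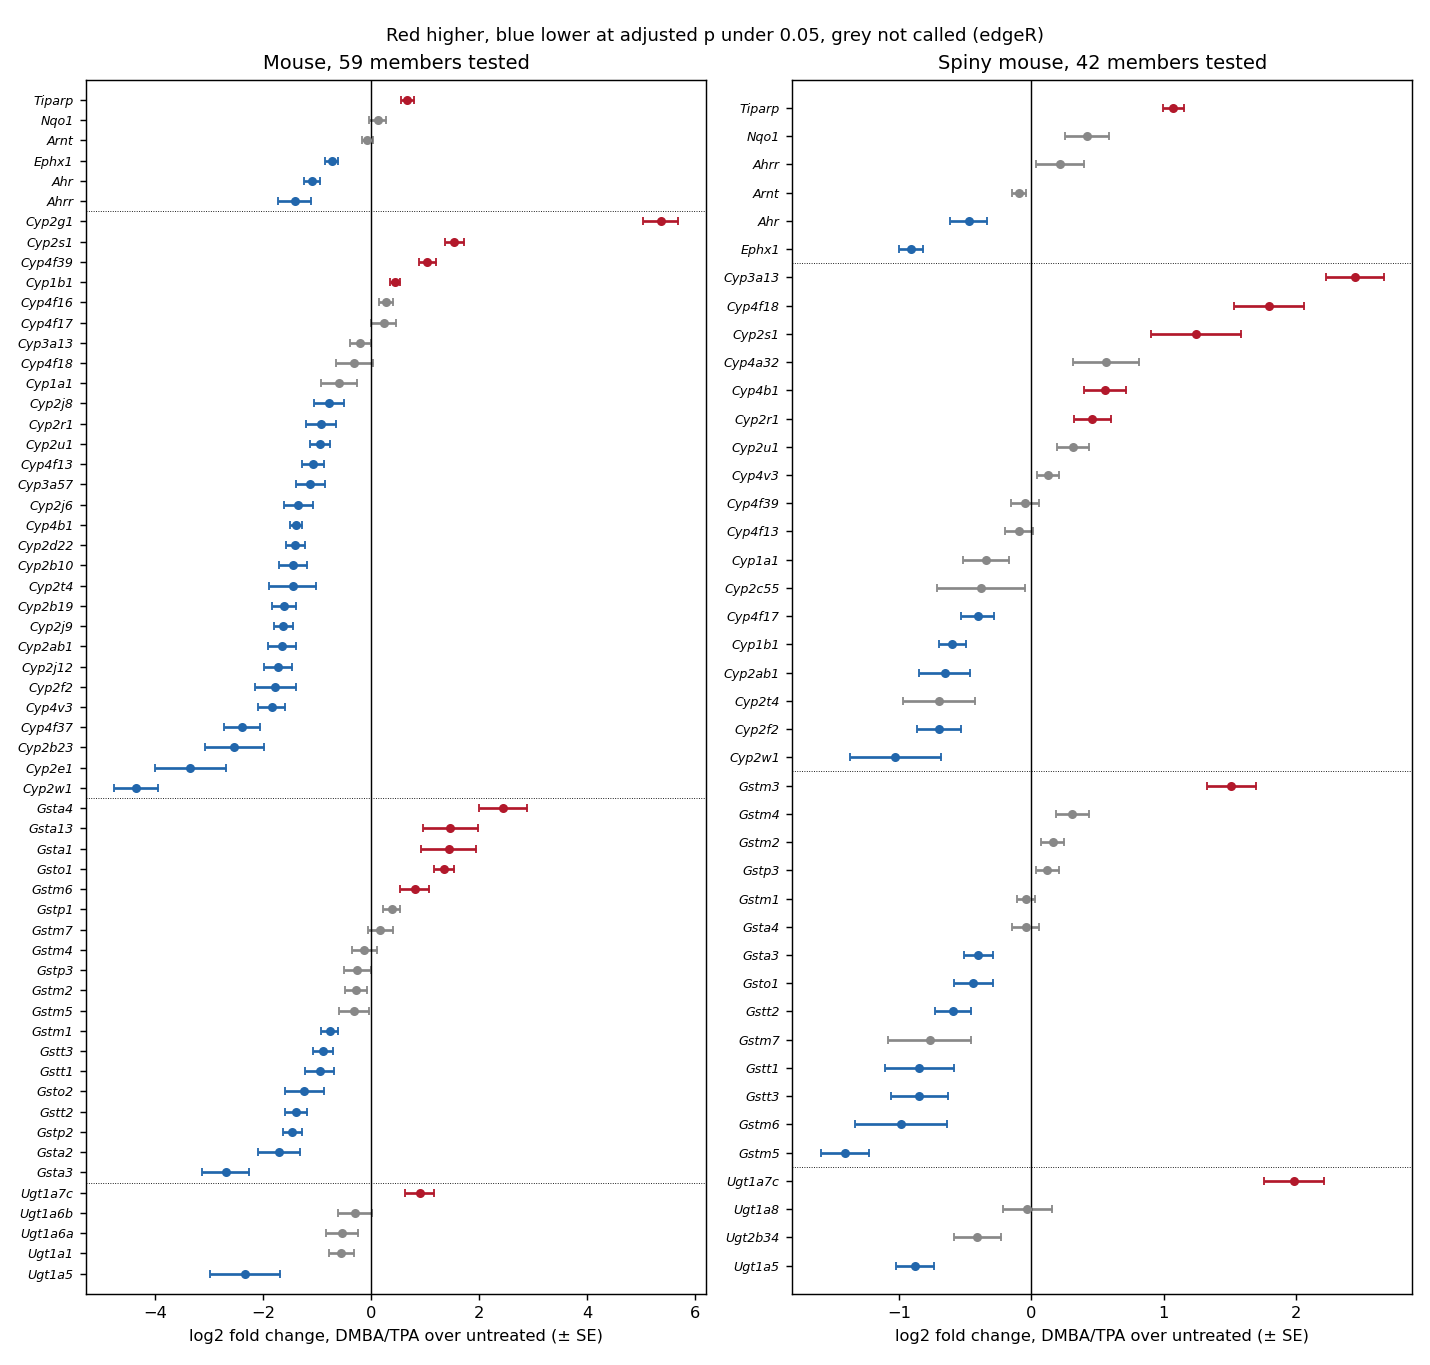
Log2 fold change of DMBA/TPA over untreated skin with its standard error for every tested member, 59 in mouse (left) and 42 in spiny mouse (right), grouped from top to bottom as regulators and targets, Cyp, Gst and Ugt. Points are red where higher, blue where lower and grey where not called. In mouse 32 members lie to the left in blue and 11 to the right in red, and in spiny mouse 15 and 8. The 2 panels have different scales.

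The receptor gene Ahr fell in both species. In mouse it was at 146, 92.97, 136 and 145 CPM in untreated replicates 1 to 4 and at 68.6, 61.4, 55.6 and 59.5 CPM in treated ones. All treated mouse samples were below all untreated ones, and the log2 fold change was -1.09 ± 0.15 (SE, adjusted p = 0.000353). In spiny mouse untreated samples were at 154, 138, 228 and 192 CPM and treated ones at 133, 128, 123 and 130.4 CPM. The groups again did not overlap and the log2 fold change was -0.47 ± 0.14 (SE, adjusted p = 0.0177). Its partner Arnt did not pass the test in either species. It was at 83.7 ± 9.90 CPM (SD, n = 4) untreated and 79.97 ± 3.62 treated in mouse, and at 74.6 ± 2.43 and 69.9 ± 2.96 in spiny mouse, with log2 fold changes of -0.07 (adjusted p = 0.596) and -0.09 (adjusted p = 0.173). Scaled by library size alone, the mouse value for Arnt was -0.31 with an adjusted p of 0.0468.

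Ahrr, the repressor that competes with Ahr for Arnt, fell in mouse. It was at 3.46, 2.89, 4.25 and 7.01 CPM untreated and 1.26, 1.89, 1.56 and 1.89 treated, without overlap, and the log2 fold change was -1.41 ± 0.30 (SE, adjusted p = 0.00352). In spiny mouse it was at 10.1, 8.73, 13.4 and 14.3 CPM untreated and 11.8, 12.2, 17.02 and 12.9 treated. These groups overlapped and the log2 fold change of 0.22 ± 0.18 (SE, adjusted p = 0.332) did not pass the test. The difference between the species, spiny mouse minus mouse, was 1.62 ± 0.35 (SE, adjusted p = 0.00167).

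Tiparp, a mono-ADP-ribosyltransferase that restrains Ahr, rose in both species. In mouse it went from 44.05, 32.6, 47.3 and 44 CPM to 74.7, 64.2, 64.3 and 65.5 CPM, a log2 fold change of 0.68 ± 0.12 (SE, adjusted p = 0.00151). The spiny mouse gene went from 51, 45.6, 53.1 and 56.8 CPM to 109, 117, 107 and 101 CPM, a log2 fold change of 1.07 ± 0.08 (SE, adjusted p = 1.77e-05). Neither species showed any overlap between groups. The difference between the species was 0.39 with an adjusted p of 0.0415. It missed the threshold in 12 of 16 fits that left out 1 library and in 4 of 9 other alternatives, over a range of 0.26 to 0.61. Of the libraries, only leaving out mouse untreated replicate 2, mouse treated replicate 1, or replicate 4 of either spiny mouse group kept the call. The difference of Ahr, 0.61 with an adjusted p of 0.0304, missed the threshold in 8 of the 16 and in 2 others, over a range of 0.48 to 0.82. The 8 left out mouse untreated replicate 1, 3 or 4, mouse treated replicate 2, 3 or 4, or spiny mouse untreated replicate 1 or 2.

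**Figure D3:**
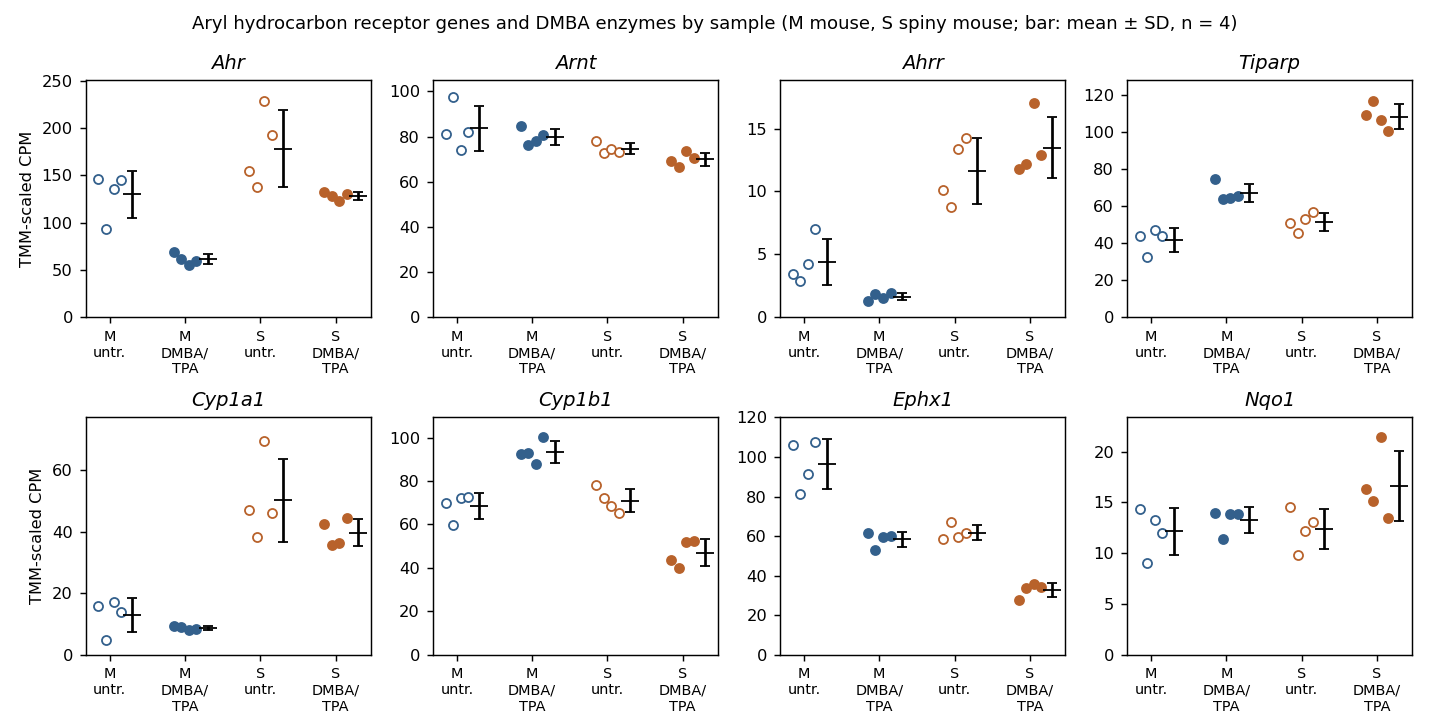
TMM-scaled CPM of 8 receptor-pathway genes in each sample of mouse (M, blue) and spiny mouse (S, brown), untreated as open and DMBA/TPA-treated as filled circles, with mean ± SD (n = 4) beside each group and every axis from 0. Treated Ahr lies below untreated and treated Tiparp above it in both species, while Cyp1b1 moves up in mouse and down in spiny mouse.

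Cyp1a1, the classical hydrocarbon-inducible CYP gene, was not called in either species. It was at 15.8, 4.78, 17.1 and 14.03 CPM in untreated mouse skin and 9.35, 9.05, 7.86 and 8.28 CPM in treated skin. Untreated replicate 2 was the lowest of all 8, the groups overlapped and the log2 fold change of -0.59 ± 0.33 (SE, adjusted p = 0.147) was not called. Without that library it was -0.77 with an adjusted p of 0.000132. Scaling by library size alone gave -0.81 (adjusted p = 0.0461), and limma-voom with sample weights gave -0.84 (adjusted p = 0.000246). In spiny mouse Cyp1a1 was at 47.1, 38.3, 69.6 and 45.9 CPM untreated and 42.5, 35.5, 36.2 and 44.3 treated. The log2 fold change of -0.34 ± 0.17 (SE, adjusted p = 0.117) was not called either, and without untreated replicate 2 it was -0.45 with an adjusted p of 0.0417. The difference between the species was 0.25 ± 0.39 (SE, adjusted p = 0.630).

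Cyp1b1, the DMBA-activating oxidase (chromosome 17, 80008966 to 80022490 in GRCm39), rose in mouse and fell in spiny mouse. In mouse it was at 69.7, 59.5, 72.1 and 72.7 CPM untreated and 92.5, 93.1, 87.8 and 100.2 CPM treated, a log2 fold change of 0.45 ± 0.10 (SE, adjusted p = 0.00352). Spiny mouse Cyp1b1 was at 77.9, 72.2, 68.5 and 65.3 CPM untreated and 43.7, 39.8, 51.9 and 52.5 CPM treated, a log2 fold change of -0.60 ± 0.10 (SE, adjusted p = 0.00108). The groups did not overlap in either species, and the difference between them was -1.04 ± 0.14 (SE, adjusted p = 2.88e-05). This difference kept its sign and passed the test in all 25 alternatives, from -1.18 to -0.82. The mouse rise alone was 0.21 with an adjusted p of 0.0552 when scaled by library size alone.

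Ephx1, which hydrolyses the epoxides that CYP enzymes form, fell in both species. In mouse it went from 106, 81.2, 91.5 and 107.7 CPM to 61.3, 52.8, 59.4 and 60.1 CPM, a log2 fold change of -0.73 ± 0.11 (SE, adjusted p = 0.000630), and without untreated replicate 1 the value was -0.67. Spiny mouse Ephx1 went from 58.5, 67.03, 59.5 and 61.4 CPM to 27.5, 33.6, 35.7 and 34.3 CPM, a log2 fold change of -0.91 ± 0.09 (SE, adjusted p = 7.18e-05). Both falls were without overlap, and the species difference of -0.18 ± 0.14 (SE, adjusted p = 0.314) was not called. Nqo1, a quinone reductase driven by Ahr and by Nrf2 (Nfe2l2), was at 14.4, 8.99, 13.3 and 11.98 CPM untreated and 13.97, 11.4, 13.8 and 13.8 treated in mouse, a log2 fold change of 0.12 (adjusted p = 0.512). Spiny mouse Nqo1 was at 14.5, 9.80, 12.2 and 13.1 CPM untreated and 16.3, 15.1, 21.4 and 13.4 treated, a log2 fold change of 0.42 (adjusted p = 0.0554). There 33% of its exon bases are shared with another gene model, and fragments in such overlaps were not counted. The groups overlapped in both species, and in spiny mouse DESeq2 gave 0.41 (adjusted p = 0.0370), the fit without untreated replicate 1 gave 0.50 (0.0458) and that without treated replicate 4 gave 0.52 (0.0306).

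The Cyp2 family, the largest and the most diverse in substrates, held 15 of the 32 members that fell in mouse. Cyp2w1, an enzyme of no settled physiological substrate (chromosome 5, 139338372 to 139342788), fell most, from 6.55, 11.01, 8.10 and 7.70 CPM untreated to 0.683, 0.440, 0.436 and 0.111 CPM treated. Every treated sample was below every untreated one by a wide margin, and the log2 fold change was -4.35 ± 0.40 (SE, adjusted p = 3.57e-05). In spiny mouse it was low throughout, at 0.782, 0.674, 0.783 and 0.823 CPM untreated and 0.409, 0.179, 0.622 and 0.274 treated, and the log2 fold change was -1.03 ± 0.34 (SE, adjusted p = 0.0295). This call was lost in 6 of the 8 fits that left out 1 library, all but those without untreated replicate 2 or treated replicate 3, with adjusted p of 0.0537 to 0.0790. The species difference was 3.33 ± 0.55 (SE, adjusted p = 0.000190).

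Cyp2e1, which oxidises ethanol and small solvents, was the mouse Cyp member with the highest untreated level per kilobase, 40.6 ± 37.6 CPM (SD, n = 4). That rank rested on untreated replicate 4, without which it was 23.3 ± 17.9 CPM per kilobase (SD, n = 3), below Cyp2b10 at 25.1 ± 9.73. It was at 92.4, 16.8, 41.4 and 199.8 CPM in untreated replicates 1 to 4 and at 9.45, 9.80, 9.68 and 5.72 CPM in treated ones. The log2 fold change was -3.34 ± 0.67 (SE, adjusted p = 0.00228), and -2.53 without untreated replicate 4, the highest sample. Without untreated replicate 1, the library with hepatocyte markers, it was -3.30 (adjusted p = 0.00483). The 8 adipocyte markers summed to 1451, 532, 1471 and 2263 CPM in the same untreated samples and 398 to 808 in treated ones, with 5 of 8 lower and none at 0, and their part in this fall was not tested. In spiny mouse Cyp2e1 had 1 to 11 counts a sample and was not tested.

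Cyp2b10 and Cyp2b23 belong to the Cyp2b group, which the nuclear receptor CAR controls in liver. Cyp2b10 fell from 65.9, 29.3, 63.9 and 57.8 CPM to 26.6, 18.9, 16.7 and 17.6 CPM without overlap, a log2 fold change of -1.45 ± 0.26 (SE, adjusted p = 0.00126). Cyp2b23 fell from 14.2, 2.32, 15.6 and 7.33 CPM to 2.10, 1.10, 1.24 and 2.41 CPM, a log2 fold change of -2.53 ± 0.55 (SE, adjusted p = 0.00357), with 1 untreated sample inside the treated range. Cyp2f2, the naphthalene oxidase of lung club cells, fell in both species, with log2 fold changes of -1.77 in mouse and -0.70 in spiny mouse. Its spiny mouse levels were 81.01, 69.9, 60.96 and 83.5 CPM untreated and 33.2, 54.2, 40.9 and 53.6 treated, without overlap, and at 41.6 ± 5.87 CPM per kilobase untreated it was among the 3 highest Cyp members there. The species difference of 1.07 ± 0.43 (SE, adjusted p = 0.0547) was not called. It was called at 1.09 to 1.28 (adjusted p of 0.00582 to 0.0411) without mouse untreated replicate 2, without spiny mouse treated replicate 1, under upper-quartile or library-size scaling and by limma-voom. Cyp2ab1 was the other Cyp2 member named for a fall in spiny mouse, from 4.93, 5.55, 6.26 and 5.44 CPM to 3.002, 2.89, 5.01 and 3.15 CPM (-0.65 on log2, adjusted p = 0.0177). Treated replicate 3 lay inside the untreated range, and the adjusted p was 0.0526 without treated replicate 2 and 0.0503 without treated replicate 4.

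Only Cyp2g1 and Cyp2s1 rose among the 17 tested mouse Cyp2 members. Cyp2g1, known from olfactory mucosa, was at 0.244, 0.132, 0.220 and 0.182 CPM untreated, with 3 to 6 counts a sample, and at 8.56, 6.29, 6.37 and 11.9 CPM treated. The groups were far apart and the log2 fold change was 5.36 ± 0.32 (SE, adjusted p = 6.18e-06). No spiny mouse fragment was counted for Cyp2g1, which allows up to 3 counts a library. Cyp2s1, a P450 of surface epithelia, rose in both species. Mouse levels were 14.6, 21.4, 11.6 and 16.3 CPM untreated and 46.6, 43.4, 44.4 and 52.3 CPM treated, a log2 fold change of 1.55 ± 0.17 (SE, adjusted p = 0.000105). Spiny mouse levels were 4.87, 10.47, 20.01 and 11.1 CPM untreated and 28.3, 24.1, 24.96 and 32.7 CPM treated, a log2 fold change of 1.24 ± 0.34 (SE, adjusted p = 0.0124). Neither species showed overlap. Cyp2r1, a vitamin D hydroxylase, went opposite ways, with -0.92 in mouse and 0.46 in spiny mouse and a difference of 1.39 ± 0.29 (SE, adjusted p = 0.00123). Its spiny mouse rise had an adjusted p of 0.0195, and 0.0523 without treated replicate 1. Its mouse fall had an adjusted p of 0.0151, and 0.0593 without untreated replicate 3.

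Cyp3a13 (scaffold_15, 68012110 to 68052928 in AcoCah2) was the only Cyp3 member tested in spiny mouse, and it rose there. Cyp3a enzymes oxidise many drugs and steroids. It was at 2.08, 1.71, 2.76 and 2.56 CPM untreated and 15.7, 14.1, 10.98 and 8.77 CPM treated, and the log2 fold change was 2.44 ± 0.22 (SE, adjusted p = 4.27e-05). In mouse it was at 15.9, 12.5, 10.7 and 13.5 CPM untreated and 14.5, 11.1, 12.2 and 8.13 treated, with overlapping groups and a log2 fold change of -0.20 (adjusted p = 0.397). The difference between the species was 2.64 ± 0.30 (SE, adjusted p = 8.56e-06), between 2.48 and 2.86 in all 25 alternatives.

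Cyp4 enzymes hydroxylate fatty acids at the chain end. Cyp4f39 is the mouse counterpart of the enzyme that hydroxylates the ultra-long fatty acids of barrier ceramides. It rose in mouse from 63.6, 46.2, 53.96 and 65.3 CPM to 142, 113, 121 and 97.05 CPM, a log2 fold change of 1.05 ± 0.15 (SE, adjusted p = 0.000405). In spiny mouse it was the highest Cyp member per kilobase, 42.2 ± 6.19 CPM untreated. It stood at 109.9, 87.8, 127 and 109.8 CPM untreated and 113, 106, 98.5 and 102 treated there (-0.05, adjusted p = 0.715), with overlapping groups, and 34.5% of its exon bases are shared with another gene model. The species difference was -1.09 ± 0.19 (SE, adjusted p = 0.000272). The 8 keratinocyte markers summed to 8999 to 15710 CPM untreated and 20760 to 29660 treated in mouse, with 4 higher, 2 lower and none at 0. In spiny mouse they summed to 14220 to 18370 CPM untreated and 24320 to 30880 treated, with 5 higher, 1 lower and none at 0. Their part in the mouse rise was not tested.

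Cyp4b1, which oxidises fatty acids and furans, went down in mouse and up in spiny mouse. Mouse levels were 38.4, 31.5, 36.8 and 43 CPM untreated and 13.5, 14.5, 14.4 and 14.8 treated, a log2 fold change of -1.39 ± 0.11 (SE, adjusted p = 2.02e-05) without overlap. Spiny mouse levels were 84.1, 67.7, 99.2 and 87.9 CPM untreated and 129.7, 128, 91.3 and 151 treated. Treated replicate 3 lay inside the untreated range and the log2 fold change was 0.56 ± 0.16 (SE, adjusted p = 0.0142). The difference between the species was 1.95 ± 0.20 (SE, adjusted p = 3.31e-06).

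Cyp4v3, a fatty acid hydroxylase, fell in mouse from 29.2, 12.7, 30.4 and 27.01 CPM to 6.20, 8.04, 6.69 and 6.87 CPM (log2 fold change -1.84 ± 0.26 SE, adjusted p = 0.000333). Spiny mouse Cyp4v3 was at 29.7 ± 0.710 CPM untreated and 32.5 ± 3.39 treated (SD, n = 4), a log2 fold change of 0.13 (adjusted p = 0.224), and 0.19 (adjusted p = 0.0484) without treated replicate 1. The species difference was 1.96 ± 0.28 (SE, adjusted p = 4.71e-05). Cyp4f37 fell in mouse with a log2 fold change of -2.39, from 3.77 to 7.52 CPM untreated to 0.527 to 1.36 treated. Cyp4f18, a leukotriene-oxidising enzyme of neutrophils, rose in spiny mouse from 2.76, 2.66, 4.15 and 2.47 CPM to 6.69, 8.43, 14.02 and 12.8 CPM without overlap. Its log2 fold change was 1.80 ± 0.27 (SE, adjusted p = 0.000513), while mouse gave -0.31, adjusted p = 0.448 and, by limma-voom, -0.59 (adjusted p = 0.0380). The difference was 2.11 ± 0.45 (SE, adjusted p = 0.00140). The 8 macrophage and neutrophil markers summed to 439.5 to 482 CPM untreated and 2898 to 3223 treated in spiny mouse, with 7 of 8 higher. In mouse the sums were 283 to 636 CPM and 1199 to 2107, with 4 higher and 2 lower, no marker was at 0 in every sample of either species, and their part in the Cyp4f18 result was not tested. Cyp4f17 shares 61% of its exon bases with another gene model in spiny mouse. It fell there with a log2 fold change of -0.40 (adjusted p = 0.0220). The adjusted p was between 0.0528 and 0.0620 without untreated replicate 3, treated replicate 1 or treated replicate 4.

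GST enzymes protect against electrophiles. Among the alpha class, Gsta4, which conjugates aldehydes from lipid peroxidation, had the largest rise of the mouse Gst members (chromosome 9, 78090056 to 78116631), from 12.6, 2.94, 8.94 and 15.4 CPM to 67.5, 45.1, 68.5 and 36.5 CPM. Untreated replicate 2 was the lowest sample, all treated samples exceeded all untreated ones and the log2 fold change was 2.45 ± 0.44 (SE, adjusted p = 0.00127). Spiny mouse Gsta4 was at 15.3, 18.6, 16.1 and 17.6 CPM untreated and 17.3, 15.3, 18.5 and 14.5 treated, with a log2 fold change of -0.04 (adjusted p = 0.749). The difference between the species was -2.49 ± 0.46 (SE, adjusted p = 0.000488), from -2.78 to -2.23 over 25 alternatives.

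Gsta3, an alpha enzyme known for conjugating the aflatoxin epoxide, fell in both species. Mouse levels were 15.3, 3.60, 5.97 and 9.02 CPM untreated and 0.998, 1.58, 1.2 and 1.45 treated, a log2 fold change of -2.69 ± 0.43 (SE, adjusted p = 0.000682). Replicate 1, the library with hepatocyte markers, was the highest, and without it the value was -2.22 (adjusted p = 0.000907). In spiny mouse the levels were 34.1, 31.97, 42.9 and 38.2 CPM and 26.8, 24.8, 28.5 and 31.4 CPM, a log2 fold change of -0.40 ± 0.11 (SE, adjusted p = 0.0127). The difference was 2.29 ± 0.44 (SE, adjusted p = 0.000662), and 1.82 without mouse untreated replicate 1. Gsta2 fell in mouse from 8.39, 2.28, 8.87 and 7.01 CPM to 2.15, 2.33, 2.22 and 1.45 CPM, with untreated replicate 2 inside the treated range (log2 fold change -1.71 ± 0.39 SE, adjusted p = 0.00455).

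Gsto1, an omega-class enzyme that reduces dehydroascorbate and protein thiol bonds, rose in mouse from 62.3, 33.3, 60.4 and 61.1 CPM to 147, 141, 131 and 135 CPM, a log2 fold change of 1.35 ± 0.19 (SE, adjusted p = 0.000330). Spiny mouse Gsto1 fell from 15.2, 21.1, 14.7 and 16.7 CPM to 9.69, 13.5, 12.96 and 13.7 CPM, a log2 fold change of -0.44 ± 0.15 (SE, adjusted p = 0.0304). Neither species showed overlap, and the difference was -1.79 ± 0.25 (SE, adjusted p = 4.14e-05). The spiny mouse fall alone had an adjusted p between 0.0579 and 0.0717 in 3 of the 8 fits that left out 1 library, those without untreated replicate 2, untreated replicate 4 or treated replicate 1.

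In the mu class, Gstm1 had the highest untreated level per kilobase of the Gst members in both species, 51.9 ± 11.6 CPM in mouse and 156 ± 1.15 CPM in spiny mouse. It fell in mouse from 99.7, 58.9, 70.8 and 76.4 CPM to 46.7, 40.8, 44.5 and 48.4 CPM (log2 fold change -0.76 ± 0.15 SE, adjusted p = 0.00238). Without untreated replicate 1 the value was -0.60. Spiny mouse Gstm1 was at 207, 209.9, 208 and 209.8 CPM untreated and 186, 223, 204 and 199 CPM treated, a log2 fold change of -0.04 (adjusted p = 0.629). Gstm5 fell in spiny mouse from 17.5, 21.3, 31.9 and 25.1 CPM to 7.69, 10.6, 9.003 and 8.68 CPM without overlap (log2 fold change -1.41 ± 0.18 SE, adjusted p = 0.000242). In mouse it was at 51.5, 19.6, 52.8 and 50.8 CPM untreated, with replicate 2 far below the rest, and 31.9, 31.4, 39.9 and 37.6 treated. Its log2 fold change there was -0.31 (adjusted p = 0.347). It was -0.46 (adjusted p = 0.000981) without untreated replicate 2 and -0.51 (adjusted p = 0.00252) by limma-voom, and the species difference was -1.10 ± 0.36 (SE, adjusted p = 0.0194). Gstm2 followed Gstm1 in spiny mouse with 33.3 ± 2.94 CPM per kilobase untreated.

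Gstm6, at low levels, rose in mouse and fell in spiny mouse. Mouse samples were at 2.69, 1.14, 1.57 and 1.96 CPM untreated and 3.46, 3.08, 3.56 and 2.82 treated, and spiny mouse samples at 0.578, 0.635, 0.374 and 0.503 CPM and 0.137, 0.214, 0.403 and 0.274 CPM, where the groups overlapped. The log2 fold changes were 0.81 (adjusted p = 0.0271) and -0.99 (adjusted p = 0.0362), and the difference was -1.79 ± 0.44 (SE, adjusted p = 0.00356). The mouse rise missed the threshold without treated replicate 1 (adjusted p = 0.0581), without treated replicate 3 (0.0650), under upper-quartile scaling (0.0606) and under library-size scaling (0.0733). The spiny mouse fall missed it in 6 of the 8 fits that left out 1 library, all but those without untreated replicate 3 or treated replicate 3 (0.0649 to 0.0950), and by DESeq2 (0.0817). Gstm3 was the only Gst member called higher in spiny mouse, from 1.09, 1.07, 0.987 and 1.10 CPM to 2.91, 3.07, 3.77 and 2.33 CPM (log2 fold change 1.51 ± 0.19 SE, adjusted p = 0.000180). In mouse it was among the members held by untreated replicate 1, with 11 counts there.

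Of the pi class in mouse, Gstp2 was called and Gstp1 and Gstp3 were not. Gstp1, the highest of the class per kilobase, was at 51.4, 29.9, 45.5 and 42.7 CPM untreated and 52.2, 48.4, 60.7 and 60.1 treated, and its log2 fold change of 0.38 ± 0.16 (SE, adjusted p = 0.0637) was not called. Leaving out untreated replicate 1, 2 or 3 or treated replicate 2 gave values of 0.34 to 0.54 with adjusted p of 0.0101 to 0.0362, and DESeq2 gave 0.48 (adjusted p = 0.00817). Gstp2 fell from 12.01, 8.20, 8.97 and 8.56 CPM to 3.15, 3.12, 3.93 and 3.56 CPM without overlap (log2 fold change -1.45 ± 0.17 SE, adjusted p = 0.000141). The 2 genes are near-identical neighbours on chromosome 19 (Gstp1 at 4085407 to 4087985 and Gstp2 at 4090285 to 4096023, GRCm39), and fragments that match both were not counted. In spiny mouse Gstp3 alone was tested and stood at 24.4, 27.6, 26.7 and 27.9 CPM untreated and 25.2, 30.3, 31.4 and 28.97 treated (0.12, adjusted p = 0.254).

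All 3 tested theta-class members were called lower in both species, as were 12.6% of all shared genes. Theta enzymes conjugate small halogenated compounds. For Gstt2 mouse samples stood at 6.92, 5.70, 8.46 and 9.66 CPM untreated and 2.42, 3.03, 3.27 and 3.01 CPM treated, a log2 fold change of -1.39 ± 0.20 (SE, adjusted p = 0.000424). Spiny mouse samples stood at 5.85, 5.99, 5.48 and 6.45 CPM untreated and 3.14, 4.14, 4.43 and 4.02 CPM treated, a log2 fold change of -0.59 ± 0.14 (SE, adjusted p = 0.00508). For Gstt1 the log2 fold change was -0.95 (adjusted p = 0.0138) in mouse, where the adjusted p was 0.0508 without treated replicate 2, and -0.85 (adjusted p = 0.0215) in spiny mouse. The spiny mouse call was lost in 5 of the 8 fits that left out 1 library, those without untreated replicate 1 or 4 or treated replicate 2, 3 or 4, with adjusted p of 0.0507 to 0.0578. For Gstt3 it was -0.88, adjusted p = 0.00352 in mouse and -0.85 (adjusted p = 0.00847) in spiny mouse.

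UGT enzymes of the Ugt1a locus have their own first exons spliced to a common set, so their models share exon bases and only fragments of the unshared part were counted. Ugt1a7c rose in both species. Its mouse levels were 6.59, 3.07, 5.35 and 3.42 CPM untreated and 7.88, 6.99, 8.95 and 10.7 CPM treated, a log2 fold change of 0.90 ± 0.26 (SE, adjusted p = 0.0143). Its spiny mouse levels were 0.306, 0.436, 0.340 and 0.503 CPM untreated and 1.36, 1.72, 1.39 and 1.78 CPM treated, a log2 fold change of 1.99 ± 0.23 (SE, adjusted p = 0.000128). Neither species showed overlap. Shared bases made up 54.6% of its exons in mouse and 88.7% in spiny mouse. Ugt1a5 fell in both species. Spiny mouse levels went from 16.1, 12.1, 12.9 and 17.2 CPM to 9.33, 6.75, 7.83 and 7.81 CPM (log2 fold change -0.88 ± 0.15 SE, adjusted p = 0.000893). In mouse, with 148 counts over the 8 samples, the log2 fold change was -2.33 and was called lower in all 18 alternatives too. Ugt1a1, the bilirubin-conjugating enzyme, was the highest mouse Ugt member per kilobase of full exon length, of which 82.7% is shared. It was at 10.2, 6.23, 9.45 and 6.61 CPM untreated and 7.35, 5.93, 4.22 and 4.86 treated. Its log2 fold change of -0.54 (adjusted p = 0.0664) was not called, and -0.57 (0.0301) without untreated replicate 2 and -0.68 (0.0422) without treated replicate 1. Upper-quartile factors, library size alone and limma-voom gave -0.74 to -0.78 with adjusted p of 0.00307 to 0.0178. No Ugt2 member was tested in mouse. The highest spiny mouse Ugt members per kilobase of full exon length were Ugt2b34, at 7.08 ± 1.55 CPM, Ugt1a5, at 4.69 ± 0.794 CPM, and Ugt1a8, at 0.839 ± 0.106 CPM. Shared bases, whose fragments were not counted, made up 72.8% of the exons of Ugt1a5 and 83.7% of those of Ugt1a8. Ugt2b34 has none, so this order need not hold for the unshared bases. Ugt2b34 was tested in spiny mouse, at 10.1, 8.92, 13.9 and 13.8 CPM untreated and 10.9, 8.50, 7.47 and 8.36 treated (-0.41, adjusted p = 0.0748), with -0.52 (0.0287) without untreated replicate 2, -0.52 (0.0380) without treated replicate 1 and -0.52 (0.0208) by limma-voom.

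Many spiny mouse members have annotated models that lie on top of each other, and fragments in such overlaps were not counted. Of 30 members with at least 90% of their exon bases shared with another model, 28 had no count and the highest total was 2, and none was tested. Of 50 members with no shared base, 35 were tested, 3 had no count, and the median total was 1195 counts over the 8 samples. The mouse table held 2 members with at least 90% shared and 97 with none. Gstp1 (scaffold_17 53439724 to 53442313) and Gstp2 (53439727 to 53442314) of the AcoCah2 assembly share 99.6% and 99.9% of their bases and had 2 and 0 counts in all. A spiny mouse count of 0 for these members therefore says nothing of their expression. The same holds for 8 of 9 Cyp3 members.

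**Figure D4:**
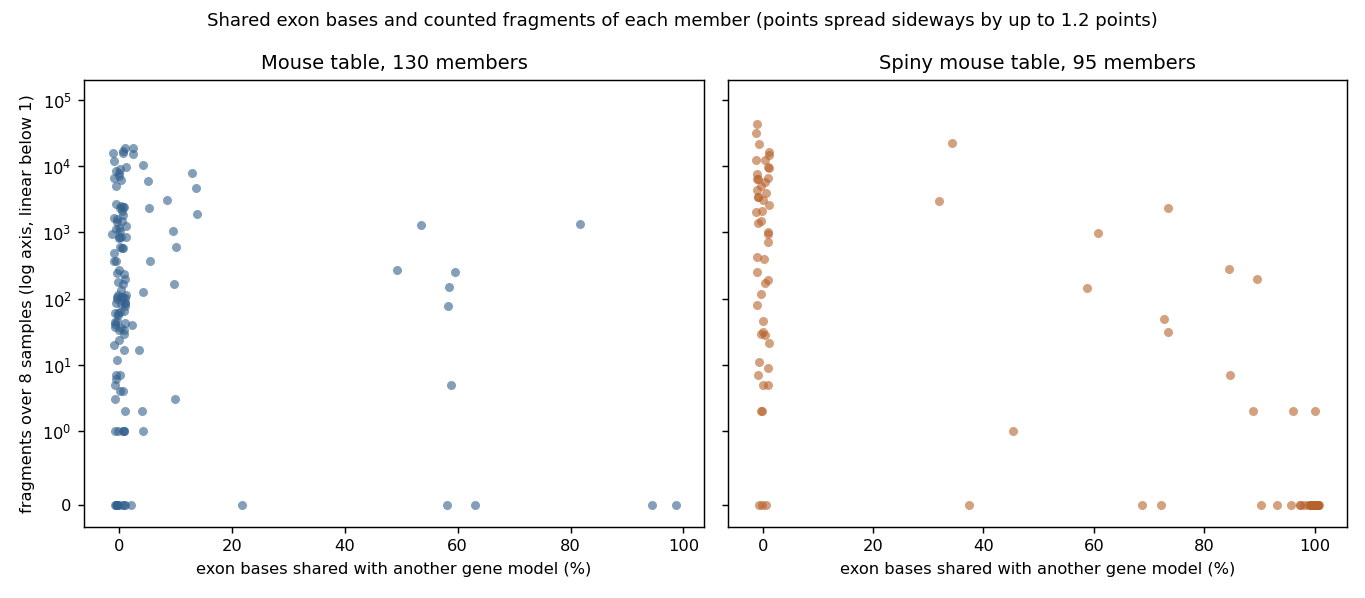
Fragments counted over the 8 samples of a species (log axis, linear below 1) against the percentage of a member's exon bases that another gene model shares, with 1 point for each of 130 mouse (left) and 95 spiny mouse members (right). Among spiny mouse members, 30 sit at 90% or more, and 28 of these have 0 counts.

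The response itself differed between the species for 22 of the 37 members tested in both (59.5%), by the species by treatment term of edgeR's quasi-likelihood test, against 46.1% of all 13656 shared genes. With its sign, the log2 fold change was higher in spiny mouse for 16 members and lower for 6, against 21.4% and 24.7% of all genes. A higher value can be a smaller fall, as for Cyp2w1, at -4.35 in mouse and -1.03 in spiny mouse. The median difference was 0.44 over the members and -0.03 over all genes. Of the 16 Cyp members 9 were higher and 2 lower in this signed sense, with a median difference of 1.03. Of the 13 Gst members 3 were higher and 4 lower, with a median of 0.10. By separate calls, 10 of the 37 members were lower in both species and 3 higher in both, where 12.6% and 15.1% of all shared genes were. Cyp1b1, Gsto1 and Gstm6 rose in mouse but fell in spiny mouse, as did 4.72% of all shared genes. Cyp4b1 and Cyp2r1 did the reverse, as did 3.53%. A shared symbol is no proof that 2 genes descend from 1 ancestor in families that have expanded.

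**Figure D5:**
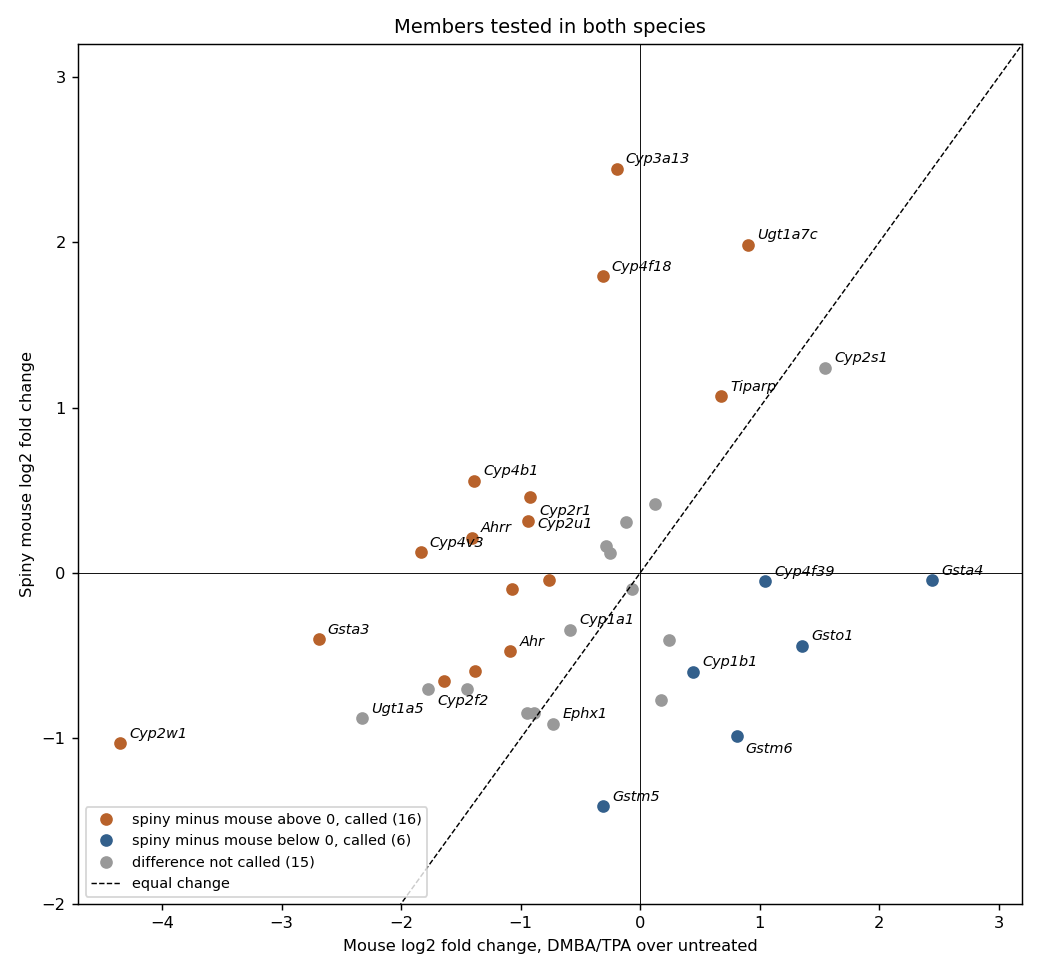
Log2 fold change of DMBA/TPA over untreated skin in spiny mouse against mouse for the 37 members tested in both, with a dashed line of equal change and colours for the test of the difference. The 16 members whose signed log2 fold change was called higher in spiny mouse lie above the line, led by Cyp2w1 (difference of 3.33), Cyp3a13 (2.64) and Gsta3 (2.29). For Cyp2w1 and Gsta3 this is a smaller fall in spiny mouse. The 6 members called lower lie below the line, led by Gsta4 (-2.49).

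Other genes of the pathway, a list of 48 reductases, flavin monooxygenases, sulfotransferases, transporters and regulators, were read from the same fits. In mouse 9 of 40 tested rose and 11 fell, against 25.9% and 35.3% of all genes, with a median log2 fold change of -0.08 beside -0.15 over all genes. In spiny mouse 10 of 39 rose and 13 fell, against 28.2% and 26.9% of all genes, with a median of -0.03 beside -0.01. Akr1c18, which inactivates progesterone, had the largest mouse rise, from 6.80, 1.71, 4.95 and 3.64 CPM to 30.4, 28.1, 25.9 and 26.5 CPM (log2 fold change 2.69 ± 0.33 SE, adjusted p = 0.000175). Sult2b1, the cholesterol sulfotransferase of epidermis, rose by 2.09 in mouse and 0.85 in spiny mouse, and the carbonyl reductase Cbr3 by 1.01 in mouse. The largest mouse falls were the estrogen sulfotransferase Sult1e1 (-2.49), the retinal dehydrogenase Aldh1a1 (-2.16) and the flavin monooxygenase Fmo5 (-1.92). In spiny mouse the aldo-keto reductase Akr1b8 rose from 3.27, 2.94, 3.51 and 2.88 CPM to 34.5, 29.1, 20.5 and 31.6 CPM (log2 fold change 3.19 ± 0.17 SE, adjusted p = 6.05e-06), and the methyltransferase Tpmt by 0.82. Falls there included the flavin monooxygenase Fmo2 (-1.73) and the Arnt relative Arnt2 (-1.33).

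Markers of the other cell types of skin moved with treatment too. The 10 growing hair follicle markers summed to 18.2 to 2639 CPM in untreated mouse skin, where replicate 2 was the highest, and to 22480 to 24410 CPM in treated mouse skin, with 8 of 10 higher. In spiny mouse 9 of them summed to 1271 to 13560 CPM untreated and 205 to 3593 treated, with 4 lower. The 10 skeletal muscle markers fell in mouse, all 10, and 9 of 9 tested fell in spiny mouse. Sebaceous gland sums were 3211 to 5386 CPM untreated and 2631 to 4142 treated in mouse (2 higher, 3 lower of 10) and 5413 to 8512 and 3994 to 4755 in spiny mouse (3 lower). T cell sums were 17.6 to 28.02 CPM and 9.56 to 11.9 in mouse (4 of 6 lower) and 27.7 to 45.3 and 47.7 to 95.3 in spiny mouse (3 of 5 higher). Fibroblast markers had 2 of 6 lower in mouse and 3 lower and 1 higher in spiny mouse, and adipocyte markers 5 of 8 lower in both. Of the markers found in the tables, only the hepatocyte marker Ambp in spiny mouse was at 0 in every sample, and their part in the members' changes was not tested.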

How the data were processed

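Polyadenylated RNA of 16 skin samples was sequenced from stranded mRNA libraries, per the labels. The authors deposited raw fragment counts per gene, 1 table a species, with the exon length of each gene. Per the file headers, featureCounts 2.0.3 counted read pairs with both ends mapped, on GRCm39 with Ensembl 108 for mouse and AcoCah2 by gene name for spiny mouse. No option for strand, multi-mapping or overlapping features was set, so fragments that fit several genes were not counted and strands cannot be told apart. The submitters' processing notes also name Trim Galore and HISAT2. Untreated columns bear a code, AC, that is in no label, and their letter for the species and their number gave the sample. The column taken as untreated mouse replicate 2, the library that changes several calls, carries a further suffix that no label explains. Mouse identifiers were named from GENCODE M39 (56236 named, 744 unnamed).

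Each species was fitted over all genes that passed filterByExpr with TMM factors and edgeR 4.0.16 (R 4.3.3) quasi-likelihood tests, Benjamini-Hochberg adjusted and called under 0.05. The species term used symbols tested in both tables. SE is the log2 fold change over the root of F. The fits were tested on simulated counts with few changed genes, as many up as down. The data hold far more calls, so that check cannot show how the scaling factors behave here. Alternatives were DESeq2 1.42.0, limma-voom (limma 3.58.1), other factors and filters, a robust fit, a replicate block and leaving out each library. Same-numbered samples correlated between -0.0111 and 0.0197 in mouse and between -0.52 and -0.183 in spiny mouse in their deviations from group means, so the numbers were not used to pair samples. Members and lists were chosen with earlier results of these data known. Named were the receptor genes and Cyp1 members, the 5 largest called rises and falls a class and species (average log2 CPM of at least 0), the 3 highest members per kilobase, the 8 largest species differences each way, the 5 highest liver-check members and 3 list genes each way a species, of which 1 is not reported here.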

Additional observations from a re-analysis of the deposited data

Results flagged for a closer look

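In 7 of 118 groups of 4 samples of the named members, 1 sample stood far from the other 3, and chance flags about 1 in 20 groups. Tiparp was at 74.7 CPM in mouse treated replicate 1, above the others. Nqo1 was at 11.4 CPM in mouse treated replicate 2 and Cyp2e1 at 5.72 CPM in mouse treated replicate 4, each below the others. Untreated mouse replicate 2 was below the other untreated samples for Gsto1, with 33.3 CPM, and for Gstm5, with 19.6 CPM. In spiny mouse Cyp2ab1 was high in treated replicate 3, at 5.01 CPM, and Cyp4f18 in untreated replicate 3, at 4.15 CPM.

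The log2 fold changes of 22 members differed between the species by the species by treatment term at an adjusted p under 0.05. Spiny mouse minus mouse, the difference was 3.33 for Cyp2w1, 2.64 for Cyp3a13, 2.29 for Gsta3, 2.11 for Cyp4f18, 1.96 for Cyp4v3 and 1.95 for Cyp4b1. It was 1.62 for Ahrr, 1.39 for Cyp2r1, 0.61 for Ahr and 0.39 for Tiparp. It was also 1.25 for Cyp2u1, 1.08 for Ugt1a7c, 0.98 for Cyp2ab1, 0.98 for Cyp4f13, 0.79 for Gstt2 and 0.72 for Gstm1. That of Ugt1a7c missed the threshold (adjusted p of 0.0515 to 0.0617) without mouse untreated replicate 1 or 3, mouse treated replicate 2, or spiny mouse untreated replicate 1 or 3. Negative differences were -2.49 for Gsta4, -1.79 for Gstm6, -1.79 for Gsto1, -1.10 for Gstm5, -1.09 for Cyp4f39 and -1.04 for Cyp1b1.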

How the results depend on the processing

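The count of members called stayed within 1.5 times in every fit run, and no named member that was called reversed. Over the fits that left out 1 library it ran from 39 to 50 in mouse, 19 to 24 in spiny mouse and 19 to 27 for the species difference. Of the called members, 34 of 43 in mouse, 16 of 23 in spiny mouse and 19 of 22 species differences were called in every alternative that tested them. Scaling by library size alone left 7 mouse members higher in place of 11. Without a filter 49 mouse members were lower in place of 32, of 115 tested. These 49 include 18 of the 31 members held by untreated replicate 1, the library with hepatocyte markers.

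The median of all mouse genes, -0.15, was -0.35 under upper-quartile scaling and -0.38 when scaled by library size. The share of higher calls among all called genes, 42.4%, was then 30.5% and 28.6%, and for the members, 25.6%, it was 20.9% and 16.3%. For the species difference the share over all genes, 46.4%, became 61.2% and 66.2% under the same pair, 36.9% with DESeq2 size factors and 36.3% without a filter. The replicate block, whose numbers share only a label here, gave 42 members in mouse, 23 in spiny mouse and 22 species differences, and 11246, 7418 and 5723 genes in all. Over all members it added Gstp1 in mouse (0.41), Gstm4 in spiny mouse (0.31) and the species difference of Cyp4f17 (-0.70). It lost Cyp2j8 (-0.73) and Gsta1 (1.49) in mouse, Gstm6 in spiny mouse (-1.01, adjusted p = 0.0959) and the species difference of Tiparp (0.39, adjusted p = 0.0748). The longer motif TNGCGTG was in 4.81% of promoters in place of 31.2%. The DESeq2 test was not run for the species difference. Depth limits members under about 0.153 CPM.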
